A study of Mus musculus with 16 samples.

Results

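The genes described here stood apart in the colon of mice carrying a TadA mutant of Bifidobacterium UCC2003. Their level in TadA mutant mice differed from both UCC2003 mice and germ-free mice (GF) in the same direction, while UCC2003 and GF mice lay close together. They were taken from a gene-level table of 1793 genes that the authors had chosen by an analysis of variance over these same 3 groups. The rule asked for a difference of at least 0.3 on the log2 scale between the mean of the TadA mutant group and the mean of each other group, and for less than 0.25 between UCC2003 and GF. It was met by 80 genes that were higher and 66 that were lower in the TadA mutant group. After 19 and 7 genes were left out by symbol (4 gene families and a list of single genes, most of them mitotic), 120 members remained, 61 higher and 59 lower. All differences of the TadA mutant group from UCC2003 and GF are therefore descriptions of how the members were chosen, and no p-value is given for them. For gene lists and for the whole table it is stated below whether genes passed in these comparisons. Those statements rest on the same selected values, and nothing is read from them.

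The series holds 16 Affymetrix exon arrays of colon RNA from Swiss Webster mice, an outbred stock. All 4 groups began as germ-free mice. UCC2003 mice were colonised with that strain alone (4 arrays), TadA mutant mice with the strain carrying a mutated TadA gene alone (4 arrays), GF mice stayed germ-free (4 arrays), and CONV mice were germ-free mice that were re-conventionalised (4 arrays, of 5 animals in the design text). The labels give no age or time of colonisation and do not say what kind of TadA mutation was used. Whole colon was extracted, so epithelium, muscle and immune cells share each array. Colon markers were high in all arrays: Guca2a, a colonocyte peptide, lay between 11.5 and 12.5 and Agr2, a goblet cell protein, between 11.5 and 11.9 on the log2 scale. Pancreatic transcripts were abundant in 8 of the 16 arrays, 2 of UCC2003, 1 of TadA mutant, 3 of GF and 2 of CONV, and their part in the gene-level values was not tested, because the columns of that table carry no replicate number. Values without these arrays are given for the members matched in a second table.

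TadA is named for the tight adherence locus, which builds a thin pilus on the bacterial surface, and the TadA protein is the ATPase that powers its assembly. The colonic epithelium is renewed from dividing cells at the crypt base, and cells that leave the cycle there become colonocytes, goblet cells and endocrine cells. Mitotic transcripts mark the dividing fraction. Germ-free animals are known for a slowly renewing epithelium and few mucosal lymphocytes, and a full microbiota is known to raise both.

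The higher members differed from the mean of UCC2003 and GF by 0.313 to 1.06 log2 units (median 0.445, or 1.36-fold), and the lower members by 0.335 to 1.11 (median 0.489, or 1.40-fold). Poorly described and weakly expressed genes made up a larger share of the members than of the table. Predicted or clone names made up 36.7% of members against 26.9% of the table, and 40.8% of members had a mean level under 5 on the log2 scale against 25.9% of the table. The median SD within groups was 0.269 log2 units in the members and 0.207 in the table. All 4 TadA mutant arrays lay above all 8 UCC2003 and GF arrays in 18 of the 61 higher members, against 2.29% of the table, and below them in 14 of the 59 lower members, against 1.90%. Both shares of the table include the members, and the rule used these arrays, so nothing is read from them.

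**Figure D1:**
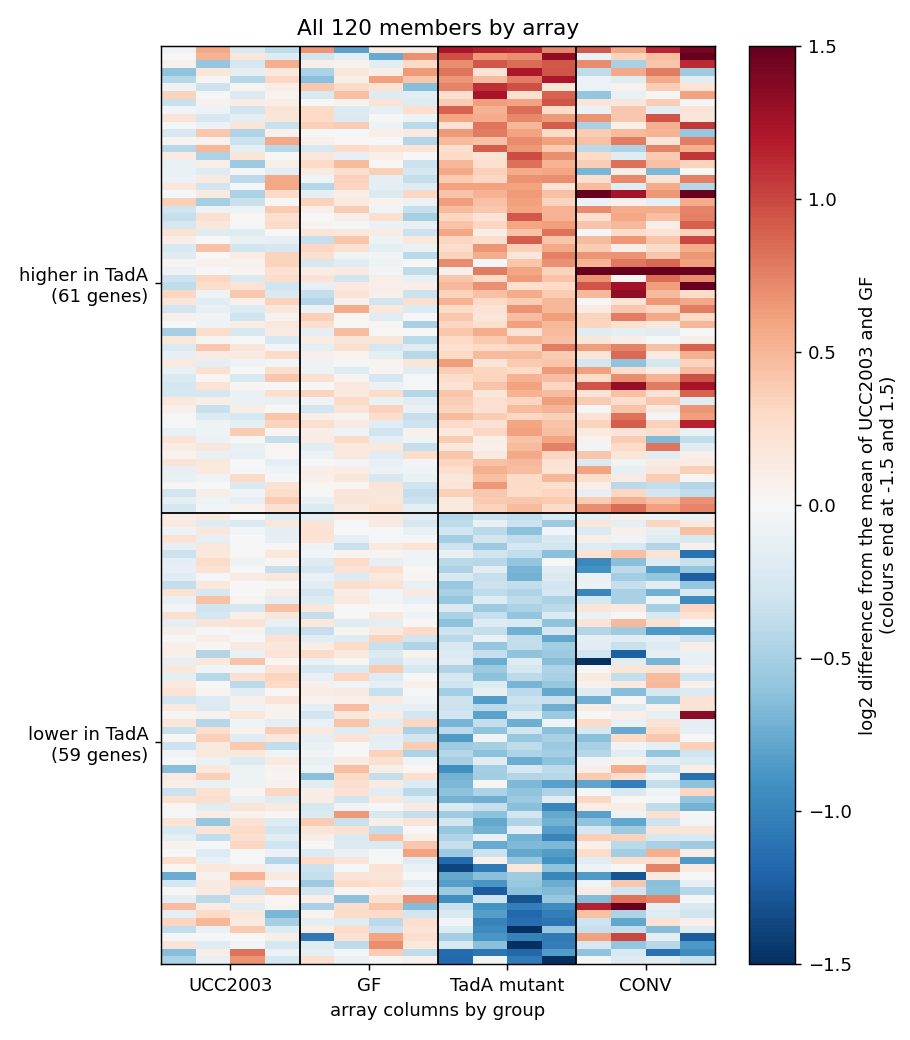
Rows are the 120 members and columns the 16 arrays by group, with colour giving the log2 difference from the gene's mean over UCC2003 and GF. The upper 61 rows are mostly red in the TadA mutant arrays and the lower 59 mostly blue there. The rule requires this of the group means and not of each array. The CONV arrays, which the rule did not use, are red in many of the upper rows and mixed in the lower ones.

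Near the threshold, the higher members just inside were Gm6434, Mllt11 and Dsg1c, whose smaller difference from UCC2003 or GF was 0.302, 0.303 and 0.307. Cbx3-ps3, Hes3 and Akap12 lay just outside at 0.296, 0.294 and 0.293. Among the lower genes, Gm14788, Zdhhc8 and Bnip3 lay just inside at 0.309, 0.315 and 0.315, and Plod1, L3mbtl4 and Cdkl1 just outside at 0.298, 0.286 and 0.283.

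The higher members include genes of cell division. Grouped by known role after their names and values had been seen, 12 of the 61 higher members act in chromosome duplication, chromosome segregation or cytokinesis. Ect2 activates RhoA for the contractile ring, and Shcbp1 acts at the midbody of dividing cells. Aspm organises spindle poles, and Tacc3 stabilises spindle microtubules. Ckap2 and Ckap2l bind spindle microtubules, Bora activates mitotic kinases, and Sgol2 protects the cohesin that holds sister chromatids together. Cdca2 recruits a phosphatase to chromatin at mitotic exit, Mis18a loads the centromeric histone, Orc6 is a subunit of the complex that licenses replication origins, and Suv39h1 methylates histone H3 in pericentromeric chromatin. The rule had already removed other mitotic genes by symbol, so these 12 are what remained and not a count of cell division genes. Ttc28 of the mitotic midzone and Insc, an adaptor that orients the spindle, were not placed in the group, and values with both added are given beside its own.

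The promoters of these genes are shown because the genes moved together across arrays, and because many cell cycle genes carry a CCAAT box and the cell cycle genes homology region, whose core is TTTGAA. RefSeq promoter windows of 300 bases around the gene start (build GRCm38.p6) were found for 70 of the 120 members, and for 9 of the 12 cell division members. Both motifs were searched on both strands. Those 4 whose windows held both motifs follow, 5′ to 3′ on the strand of the gene, with TTTGAA and CCAAT (or their reverse complements TTCAAA and ATTGG) in capitals.
Aspm at chr1:139454523-139454822 (plus strand): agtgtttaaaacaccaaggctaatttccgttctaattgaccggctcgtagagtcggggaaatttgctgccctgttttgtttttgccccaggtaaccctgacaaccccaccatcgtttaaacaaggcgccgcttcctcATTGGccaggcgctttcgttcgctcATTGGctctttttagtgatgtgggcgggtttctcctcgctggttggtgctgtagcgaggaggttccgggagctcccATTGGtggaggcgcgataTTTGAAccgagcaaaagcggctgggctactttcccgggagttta
Ckap2l at chr2:129297163-129297462 (minus strand): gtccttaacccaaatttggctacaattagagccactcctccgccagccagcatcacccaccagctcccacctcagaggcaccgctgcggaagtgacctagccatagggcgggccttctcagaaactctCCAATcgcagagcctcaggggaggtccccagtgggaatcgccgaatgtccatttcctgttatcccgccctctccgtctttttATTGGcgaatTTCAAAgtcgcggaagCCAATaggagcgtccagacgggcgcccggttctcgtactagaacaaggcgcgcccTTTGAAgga
Ckap2 at chr8:22185770-22186069 (minus strand): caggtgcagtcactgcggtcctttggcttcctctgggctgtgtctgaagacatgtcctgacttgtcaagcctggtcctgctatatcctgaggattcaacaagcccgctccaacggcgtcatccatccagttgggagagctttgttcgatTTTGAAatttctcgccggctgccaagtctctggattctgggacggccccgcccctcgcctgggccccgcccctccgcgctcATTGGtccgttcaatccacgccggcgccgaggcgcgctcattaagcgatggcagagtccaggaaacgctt
Ect2 at chr3:27153829-27154128 (minus strand), the first of its 2 listed starts: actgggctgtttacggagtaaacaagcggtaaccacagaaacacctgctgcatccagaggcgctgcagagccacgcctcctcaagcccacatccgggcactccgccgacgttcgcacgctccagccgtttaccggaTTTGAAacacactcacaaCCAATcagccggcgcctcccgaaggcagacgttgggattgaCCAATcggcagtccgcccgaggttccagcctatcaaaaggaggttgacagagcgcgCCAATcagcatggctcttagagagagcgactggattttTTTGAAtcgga

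TTTGAA was found in 4 of these 9 windows (44.4%), against 18.1% of the 27025 promoter windows of that length, one per symbol. CCAAT was found in 7 of 9 (77.8%), against 37.9% of all windows. Of 3 further motifs searched on both strands, the GC box GGGCGG, which is no cell cycle element, was found in 8 of 9 (88.9%) against 35.9% of all windows, TTTNNCGC, an E2F-like motif, in 2 (22.2%) against 5.27%, and TATAAA in 1 (11.1%) against 14.2%. The 31 windows of the other higher members held TTTGAA in 3 (9.68%) and CCAAT in 8 (25.8%), and the 30 windows of the lower members held them in 7 (23.3%) and 14 (46.7%). GGGCGG was found in 14 (45.2%) and 13 (43.3%) of these windows. In the 4 windows printed, no base of one motif was shared with the other. A motif match describes letters in a window and says nothing of a factor bound there.

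In the TadA mutant group the 12 cell division members lay 0.382 to 0.557 log2 units above the mean of UCC2003 and GF. Their median was 0.455, beside 0.445 for all 61 higher members, which ran from 0.313 to 1.06. The rule sets the lower bound of these differences, so nothing is read from the range. Aspm read 4.7, 5.01, 5.23 and 5.66 in UCC2003, 5.41, 5.49, 5.77 and 5.79 in TadA mutant, 4.74, 4.96, 5.04 and 5.45 in GF and 5.3, 5.35, 5.82 and 5.86 in CONV on the log2 scale. The lowest TadA mutant array lay above 3 of the 4 UCC2003 and 3 of the 4 GF arrays, and the groups overlapped by 1 array each. CONV spanned about the same levels as TadA mutant.

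Ect2 read 6.16, 6.61, 6.79 and 6.79 in UCC2003, 6.96, 7.21, 7.22 and 7.53 in TadA mutant, 6.39, 6.73, 7.01 and 7.18 in GF and 7.04, 7.08, 7.16 and 7.54 in CONV on the log2 scale. All 4 UCC2003 arrays lay below the TadA mutant arrays, 2 GF arrays reached into their range, and CONV again overlapped TadA mutant. Sgol2 read 5.59, 5.87, 5.89 and 6.06 in UCC2003, 6.07, 6.18, 6.29 and 6.47 in TadA mutant, 5.77, 5.83, 5.85 and 6.01 in GF and 6.64, 6.8, 7.11 and 7.18 in CONV on the log2 scale. Here all TadA mutant arrays lay above all UCC2003 and GF arrays, and all CONV arrays lay above all TadA mutant arrays.

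Cdca2 read 5.04, 5.26, 5.26 and 5.72 in UCC2003, 5.74, 5.81, 5.85 and 5.93 in TadA mutant, 4.99, 5.29, 5.41 and 5.71 in GF and 5.89, 5.9, 6.04 and 6.08 in CONV on the log2 scale. The TadA mutant arrays of this gene were tightly grouped, and the CONV arrays lay above all 8 UCC2003 and GF arrays. Tacc3 read 5.99, 6.06, 6.11 and 6.46 in UCC2003, 6.35, 6.42, 6.56 and 6.72 in TadA mutant, 5.82, 5.96, 6.25 and 6.39 in GF and 6.46, 6.47, 7.04 and 7.29 in CONV on the log2 scale. In Tacc3 the CONV arrays also lay above all UCC2003 and GF arrays, 2 of them by a small margin and within the TadA mutant range.

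CONV arrays entered neither the rule nor the authors' analysis of variance, so they give the measurement of these genes that is least bound to the choice of members. CONV was therefore set against the mean of the other 3 groups, a contrast that is orthogonal to the differences among those 3 on which the rule rests. All groups shared 1 estimate of spread, which includes the arrays that the table was chosen on. The p-values are therefore not free of that choice. The contrast was chosen after the data had been seen. In this contrast the median of the 12 cell division members was 0.33 log2 units, beside 0.212 for the 61 higher members and 0.028 over all 1793 genes. Of the 12, 8 had an unadjusted p under 0.05, where 17.1% of all genes were higher at that p and 12.3% lower, and 1, Sgol2, passed the adjusted threshold in limma. Of all 61 higher members, 24 (39.3%) were higher in CONV at that unadjusted p. Sgol2 was higher in CONV by 0.94 ± 0.11 log2 units (SE, n = 4 CONV and 12 other arrays, adjusted p = 0.000419). The median ratio of the CONV difference to the TadA mutant difference, both from the mean of UCC2003 and GF, was 0.999, with members from 0.713 in Orc6 to 2.73 in Sgol2. With Insc (0.351) and Ttc28 (-0.395) added the median ratio of the 14 was 0.969 and their median difference of CONV from the other groups 0.317. The baseline and the divisor of this ratio come from arrays the rule used, so it is a description. In these bulk samples a larger share of dividing cells and more mitotic RNA per dividing cell cannot be told apart.

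The 12 genes also varied together between animals of the same group, which the rule did not use. Taking each array's deviation from its group mean, the 66 gene pairs had a median Pearson r of 0.624 over the 16 arrays, from 0.252 for Sgol2 and Orc6 to 0.901 for Aspm and Shcbp1. All 66 were above 0, but with Insc and Ttc28 added 74 of 91 pairs were, with a median of 0.552 and a lowest r of -0.519. The median was 0.672 by Spearman's rank correlation, and 0.579 by Pearson without the 2 arrays whose cell division mean lay farthest from its group. Pairs among the other 49 higher members had a median of 0.0275, pairs among the 59 lower members 0.0111 and pairs over all 1793 genes 0.024. The points of each pair share an array and its RNA, and no p is given because the genes were grouped with results known.

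**Figure D2:**
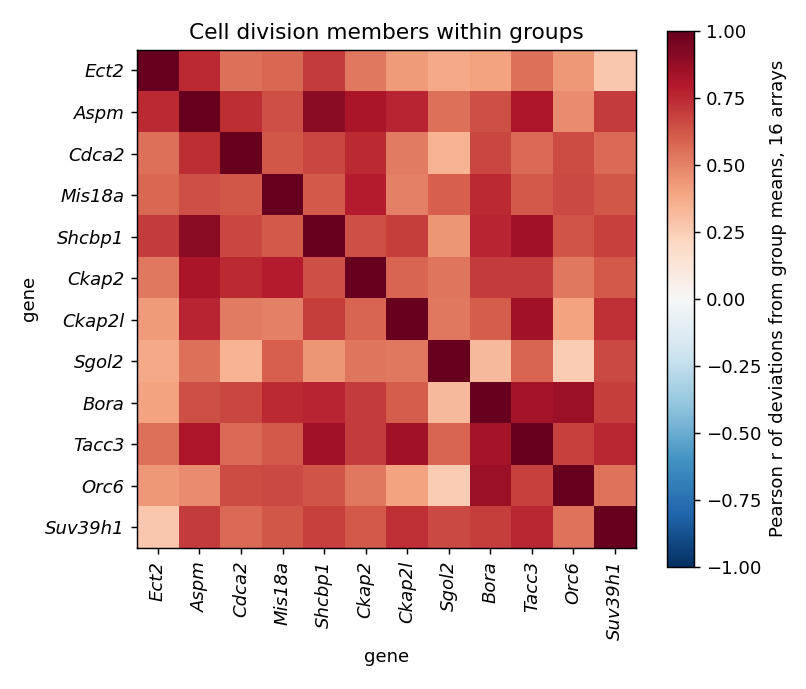
Each cell gives Pearson's r between 2 cell division members over the deviations of the 16 arrays from their group means, on a colour scale from -1 to 1. All pairs are above 0, and the palest off-diagonal cells belong to Sgol2 and Ect2.

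Of a proliferation list of 60 genes, 6 were measured in the gene-level table: the members Ect2 and Tacc3, and Mybl2, Cenpa, Ncapd2 and Stmn1. All 6 were higher in TadA mutant than in GF and than in UCC2003, with a median difference of 0.329 from GF and 0.28 from UCC2003, beside -0.00612 and 0.0509 over all genes. The rule fixed this direction for Ect2 and Tacc3, and the table was selected on these groups, so nothing is read from it. None of the 6 passed limma's adjusted threshold in either comparison. Not a single gene among all 1793 passed against GF, although an unadjusted p under 0.05 was reached by 387 genes that were higher and 353 that were lower, and 4 genes passed against UCC2003, none of them a member. The summed level of the 4 that are not members ran from 8.53 to 8.92 in UCC2003, 8.89 to 9.07 in TadA mutant, 8.74 to 8.87 in GF and 8.98 to 9.28 in CONV. In the cluster table, which was not selected on these groups, 4 other genes of the list were measured (Gins2, Mcm4, Cks1b and Birc5). There the summed level ran from 9.42 to 9.70 in UCC2003, 9.75 to 9.87 in TadA mutant, 9.33 to 9.88 in GF and 9.89 to 10.47 in CONV, so that the TadA mutant arrays lay within the GF range.

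The smallest p of any member in the CONV comparisons belonged to Duox2, the dual oxidase that releases hydrogen peroxide at the surface of the intestinal epithelium. Duox2 read 6.54, 6.61, 6.66 and 6.85 in UCC2003, 6.69, 6.97, 7.22 and 7.41 in TadA mutant, 6.25, 6.58, 6.73 and 6.76 in GF and 8.4, 9.18, 9.31 and 9.87 in CONV on the log2 scale. The TadA mutant arrays lay little above those of UCC2003 and GF and 1 of them lay within their range, while every CONV array stood far above all others. CONV exceeded GF by 2.61 ± 0.235 log2 units (SE, 6.11-fold, limma adjusted p = 4.38e-05) and UCC2003 by 2.52 ± 0.235 (adjusted p = 7.13e-05). The rule took higher members with low values in GF and UCC2003. Here and in the paragraphs below, p-values of CONV against GF or UCC2003 therefore lean towards a call. Against the mean of the other 3 groups the difference was 2.42 ± 0.19 (adjusted p = 7.31e-06). The CONV difference from UCC2003 and GF was 5.73 times that of TadA mutant. Duox2 and Noxo1 were the only 2 measured genes of an 18-gene list of antimicrobial and oxidant genes.

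**Figure D3:**
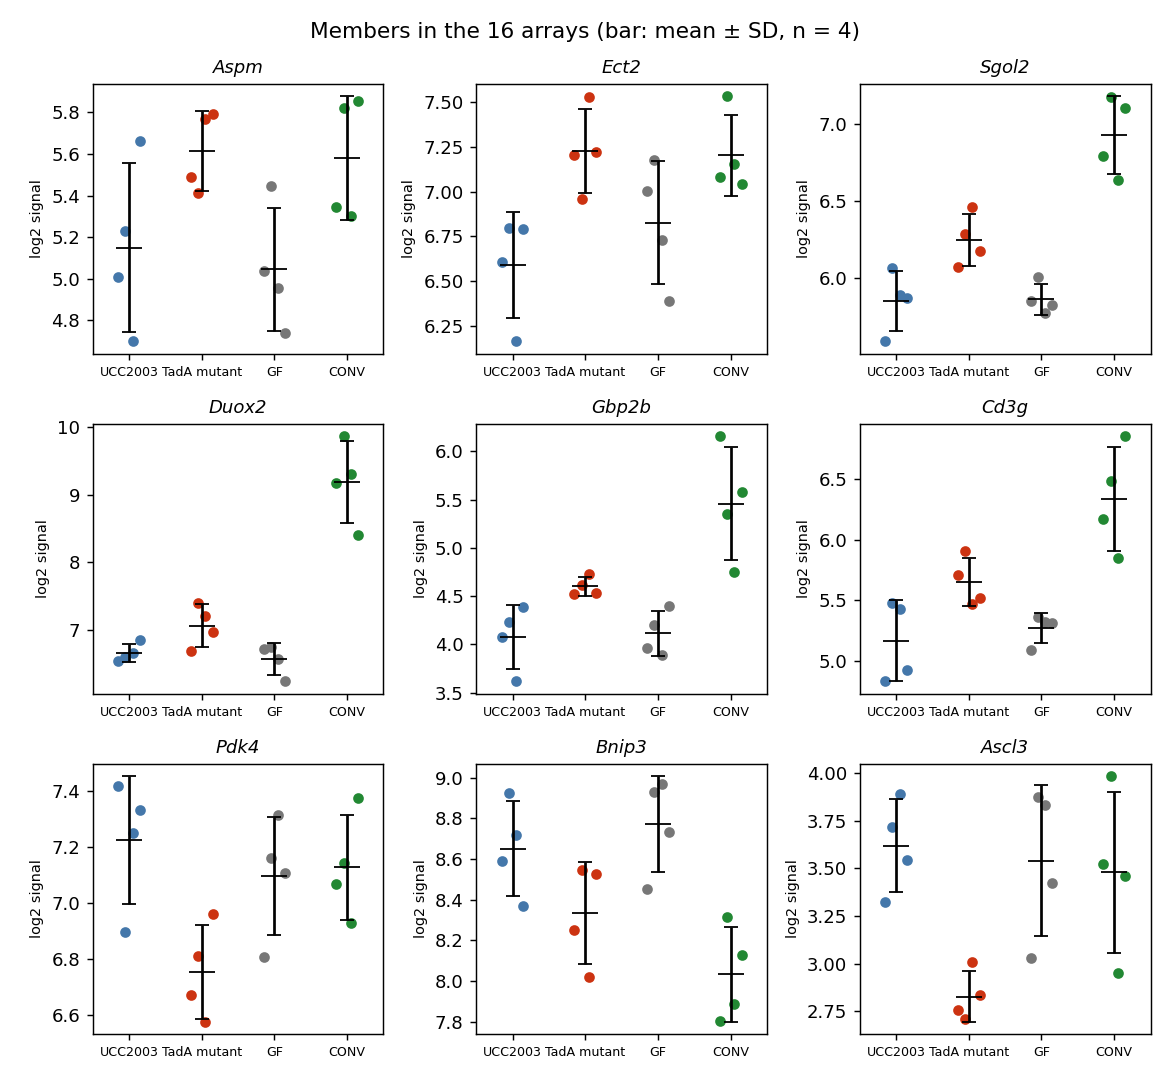
Each panel shows 1 member on a log2 scale that does not start at 0, with points for the 4 arrays of a group and a bar for the mean ± SD. Aspm and Ect2 overlap between TadA mutant and CONV, the CONV arrays of Sgol2, Duox2 and Gbp2b lie above all other arrays, and the TadA mutant arrays of Pdk4, Bnip3 and Ascl3 lie mostly in the lower range of UCC2003 and GF or below it.

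Several higher members are genes of immune cells, and their mean was higher in CONV than in TadA mutant in each of 5. Cd3g is a chain of the T cell receptor complex, Il2rg the common gamma chain of several interleukin receptors, Cd48 an adhesion receptor of leukocytes, Il1rl1 the receptor for interleukin 33, and Gbp2b a guanylate-binding protein induced by interferon. The group of 5 was formed after the names and values were seen. None of the 31 genes of an interferon list was a member: the 3 measured, Ifit3, Gbp4 and Stat2, had a median difference of TadA mutant of 0.495 from GF and -0.205 from UCC2003, and none passed in limma. Cd3g read 4.83, 4.92, 5.43 and 5.48 in UCC2003, 5.47, 5.52, 5.71 and 5.9 in TadA mutant, 5.09, 5.32, 5.32 and 5.36 in GF and 5.85, 6.17, 6.48 and 6.86 in CONV on the log2 scale. Its TadA mutant arrays overlapped those of UCC2003 by a narrow margin, and its CONV arrays ran from within the TadA mutant range to well above it. CONV exceeded GF by 1.07 ± 0.195 (SE, limma adjusted p = 0.0369), UCC2003 by 1.17 ± 0.195 (adjusted p = 0.018) and the mean of the other groups by 0.98 ± 0.16 (adjusted p = 0.0138). These calls were not stable: against the mean of the other groups Cd3g did not pass in 3 of 22 alternative settings (adjusted p up to 0.0887), among them those without the second or the fourth CONV column, and it did not pass in 9 of 15 settings against GF (up to 0.247) and in 5 of 15 against UCC2003 (up to 0.272).

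Gbp2b read 3.62, 4.07, 4.23 and 4.39 in UCC2003, 4.53, 4.53, 4.61 and 4.73 in TadA mutant, 3.89, 3.96, 4.2 and 4.4 in GF and 4.75, 5.35, 5.58 and 6.16 in CONV on the log2 scale. All TadA mutant arrays lay above all UCC2003 and GF arrays and below all CONV arrays. CONV exceeded GF by 1.34 ± 0.23 (SE, limma adjusted p = 0.0244), UCC2003 by 1.38 ± 0.23 (adjusted p = 0.0184) and the mean of the other groups by 1.19 ± 0.19 (adjusted p = 0.012). Gbp2b did not pass against the mean of the other groups in 2 of 21 settings (adjusted p up to 0.0584), an ordinary fit and the fit without the fourth CONV column, nor in 7 of 14 against GF (up to 0.297) and 5 of 14 against UCC2003 (up to 0.286).

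Il2rg read 5.51, 5.52, 5.53 and 5.81 in UCC2003, 5.45, 5.89, 6.16 and 6.18 in TadA mutant, 5.23, 5.3, 5.4 and 5.47 in GF and 5.97, 6.08, 6.26 and 6.33 in CONV on the log2 scale. A single TadA mutant array lay below the UCC2003 arrays, and the other 3 lay above all UCC2003 and GF arrays. The gene met the rule in only 5 of 12 settings that each left out 1 UCC2003, TadA mutant or GF array. Il2rg passed in CONV against GF (0.81 ± 0.145, SE, limma adjusted p = 0.0313) but not against UCC2003 (0.57 ± 0.145, adjusted p = 0.233) or the mean of the other groups (0.54 ± 0.12, adjusted p = 0.116). Its call against GF was lost in 9 of 15 settings (adjusted p up to 0.123), among them those without any single GF column. That call rests on GF values that the rule used, so nothing is read from it. Cd48 did not pass in CONV against GF (0.75 ± 0.16, adjusted p = 0.0957), nor did Il1rl1 (0.75 ± 0.205, adjusted p = 0.482). The 5 genes did not vary together within groups as the cell division genes did, with a median pair r of 0.0265 over 16 arrays.

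Other markers of these cells were few in the tables. Of a list of 26 T and NK cell genes, Cd3g and Prf1, the pore-forming protein of cytotoxic cells, were the only 2 measured in the gene-level table, and none of the list passed in TadA mutant against GF or UCC2003. Prf1 ran from 6.0 to 6.12 in UCC2003, 6.23 to 6.37 in TadA mutant, 6.0 to 6.19 in GF and 6.11 to 6.29 in CONV. Of 16 B cell genes 8 were measured, and none was a member. Their summed level ran from 8.54 to 9.33 in UCC2003, 8.47 to 9.26 in TadA mutant, 8.0 to 8.36 in GF and 8.79 to 9.95 in CONV. The TadA mutant range lay above GF and overlapped UCC2003. No B cell gene passed in TadA mutant against GF, UCC2003, or in CONV against GF, and the part of lymphocyte content in the values above was not tested.

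Ppih, a cyclophilin of the spliceosome, was the remaining higher member that passed in CONV. Ppih read 7.21, 7.43, 7.53 and 7.7 in UCC2003, 7.62, 7.75, 7.81 and 7.94 in TadA mutant, 7.26, 7.34, 7.6 and 7.68 in GF and 8.08, 8.17, 8.21 and 8.31 in CONV on the log2 scale. The TadA mutant arrays overlapped those of UCC2003 and GF, and the CONV arrays lay above all other arrays. CONV exceeded GF by 0.72 ± 0.12 (SE, limma adjusted p = 0.0216), UCC2003 by 0.72 ± 0.12 (adjusted p = 0.0188) and the mean of the other groups by 0.62 ± 0.10 (adjusted p = 0.0131). Without the second CONV column the last of these did not pass (adjusted p = 0.0816), and Ppih did not pass in 6 of 15 settings against GF (up to 0.208) and in 6 of 15 against UCC2003 (up to 0.162).

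In all, 6 of the 61 higher members passed limma's adjusted threshold as higher in CONV than in GF, against 2.73% of the table, and 5 as higher in CONV than in UCC2003, against 2.62%. Against the mean of the other groups 5 passed, against 2.73%, namely Duox2, Sgol2, Gbp2b, Ppih and Cd3g. No higher member passed as lower in CONV. Among the 59 lower members 0 passed as lower in CONV than in GF, UCC2003 or the mean of the other groups, against 0.725%, 1.51% and 1.12% of all genes. None of them passed as higher either. At an unadjusted p under 0.05, 13, 11 and 8 of the 59 lower members were lower in CONV than in GF, UCC2003 and the mean of the other groups, which is 22%, 18.6% and 13.6% beside 11.9%, 16.6% and 12.3% of all genes. The comparisons with GF and with UCC2003 share those arrays with the rule, and so lean towards a call in the direction of each member. Smooth muscle transcripts also varied between groups. The summed level of 6 smooth muscle genes ran from 10.73 to 10.96 in CONV, 10.74 to 11.35 in GF, 11.27 to 11.83 in TadA mutant and 11.88 to 12.02 in UCC2003. The CONV range thus overlapped that of GF. Whether muscle content differed was not tested, nor was its part in these results.

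**Figure D4:**
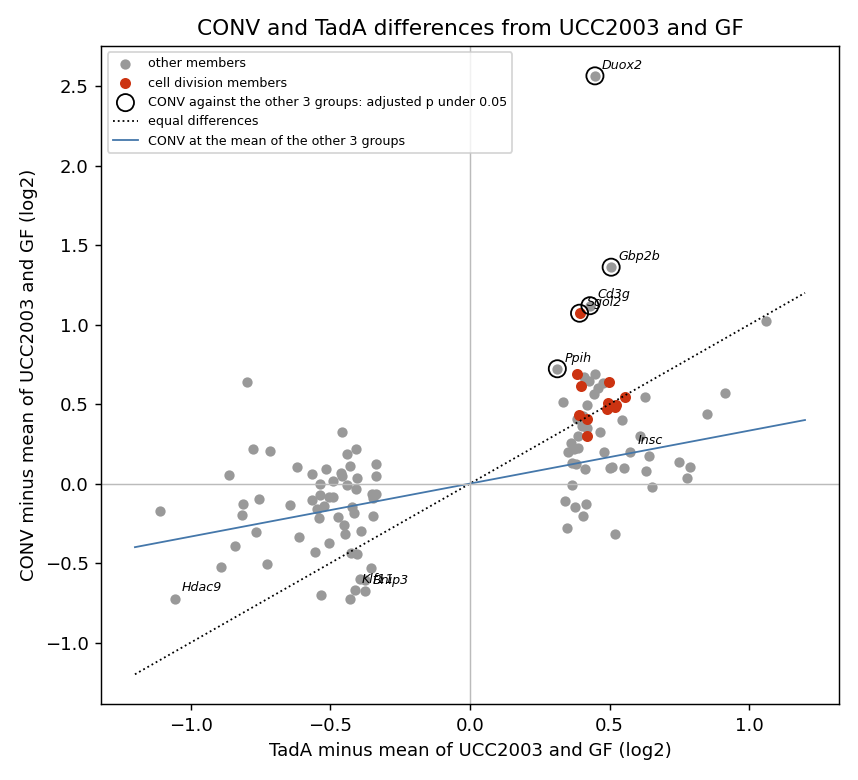
Each point is a member, placed by its log2 difference from the mean of UCC2003 and GF in TadA mutant (horizontal) and in CONV (vertical). The dotted line marks equal differences and the blue line a CONV mean equal to the mean of the other 3 groups. The 5 ringed genes, Duox2 highest, passed in CONV against the other 3 groups, and the 12 cell division members lie near or above the dotted line.

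The position of CONV was described in each direction, with no test between the directions, since the baseline and the divisor used come from arrays the rule used. Among higher members the median ratio of the CONV difference to the TadA mutant difference, both from the mean of UCC2003 and GF, was 0.731, where 0 means CONV at the level of UCC2003 and GF and 0.333 a CONV mean equal to that of the 3 other groups. CONV reached or passed the TadA mutant level in 20, lay at least midway in 19, lay nearer to UCC2003 and GF in 14, and lay on the opposite side in 8. Among lower members the median was 0.205, and the matching counts were 9, 10, 23 and 17. Genes chosen by the same rule for UCC2003 alone had medians of 0.15 (84 higher) and 0.208 (125 lower), and genes in which GF stood apart from both strains had 0.534 (118) and 0.460 (186). All 4 CONV arrays lay above all UCC2003 and GF arrays in 11 of the 61 higher members, against 4.52% of the table, and below all of them in 3 of the 59 lower members, against 1.95%. The 3 lower ones were Klf11, Bnip3 and the predicted gene Gm8882.

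Named higher members with the largest differences in TadA mutant were mostly weakly expressed. Ccdc157, which encodes a coiled-coil protein, averaged 6.0 ± 0.42 in TadA mutant, 5.10 ± 0.36 in UCC2003, 5.31 ± 0.46 in GF and 5.32 ± 0.66 in CONV (SD, n = 4). Vmn1r42, a vomeronasal receptor, averaged 5.13 ± 0.40, 4.32 ± 0.19, 4.45 ± 0.48 and 4.52 ± 0.20 in the same order, and its relative Vmn1r199 had group means between 2.58 and 3.25. Insc averaged 4.50 ± 0.21 in TadA mutant, 3.88 ± 0.38 in UCC2003, 3.98 ± 0.08 in GF and 4.13 ± 0.52 in CONV. Pvt1, a long non-coding RNA beside Myc, averaged 4.48 ± 0.36, 3.90 ± 0.29, 3.97 ± 0.13 and 4.34 ± 0.52, with no overlap between its TadA mutant arrays and those of UCC2003 and GF. The pseudogene Hmgb1l was near the floor of the arrays, with group means from 1.88 to 2.56.

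Spaca1, an acrosomal membrane protein of sperm, was weakly expressed. Spaca1 read 3.07, 3.1, 3.17 and 3.23 in UCC2003, 3.62, 3.82, 3.83 and 3.85 in TadA mutant, 2.99, 3.39, 3.5 and 3.61 in GF and 2.57, 2.58, 3.25 and 3.36 in CONV on the log2 scale. All TadA mutant arrays lay above all others. CONV was below the mean of the other groups by 0.49 ± 0.14 (SE, limma adjusted p = 0.591), the opposite side from TadA mutant. Spaca1 and the clone-named E330017A01Rik were the only 2 members whose p in the authors' deposited table was under 0.001, and 12 higher and 11 lower members had one under 0.01.

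Among the lower members, Pdk4 is the kinase that shuts pyruvate out of oxidation. Pdk4 read 6.9, 7.25, 7.33 and 7.42 in UCC2003, 6.58, 6.67, 6.81 and 6.96 in TadA mutant, 6.81, 7.11, 7.16 and 7.31 in GF and 6.93, 7.07, 7.14 and 7.38 in CONV on the log2 scale. A single array each of UCC2003 and GF reached into the TadA mutant range, and CONV lay at the level of GF (difference 0.03 ± 0.14, SE, limma adjusted p = 1). Pdk4 stood on a list of 36 genes of xenobiotic and lipid metabolism, of which 8 were measured. TadA mutant lay above GF in 2 of the 8 and above UCC2003 in 3, with median differences of -0.339 and -0.346, and none passed in limma. Over all 1793 genes TadA mutant lay above GF in 885 and above UCC2003 in 999, with medians of -0.00612 and 0.0509. The rule fixed the direction of the members among the 8. All genes here were also selected on these groups, so nothing is read from these values.

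Further lower members were also low in CONV without passing the adjusted threshold. Bnip3 marks mitochondria for removal by autophagy, Klf11 is a Krüppel-like transcription factor, and Snrk is a kinase related to AMPK. Bnip3 read 8.37, 8.59, 8.72 and 8.93 in UCC2003, 8.02, 8.25, 8.53 and 8.55 in TadA mutant, 8.45, 8.73, 8.93 and 8.97 in GF and 7.8, 7.89, 8.13 and 8.32 in CONV on the log2 scale. The TadA mutant arrays overlapped both UCC2003 and GF, and the CONV arrays lay below every array of those groups. CONV was lower than GF by 0.74 ± 0.16 in Bnip3 (SE, limma adjusted p = 0.129), 0.71 ± 0.15 in Klf11 (adjusted p = 0.105) and 0.58 ± 0.19 in Snrk (adjusted p = 0.981). Fjx1, a secreted protein, was 0.58 ± 0.15 below GF in CONV (adjusted p = 0.362), and Gm8882 was 0.70 ± 0.18 below (adjusted p = 0.3).

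The largest difference among the named lower members was that of Hdac9, a histone deacetylase, whose signal was close to the floor of the arrays. Hdac9 read 2.2, 2.76, 2.94 and 3.65 in UCC2003, 1.67, 1.69, 1.76 and 2.01 in TadA mutant, 2.46, 2.7, 2.81 and 3.23 in GF and 1.72, 1.9, 2.24 and 2.61 in CONV on the log2 scale. All TadA mutant arrays lay below all UCC2003 and GF arrays, and CONV spread over both ranges. Ascl3, a basic helix-loop-helix transcription factor, averaged 2.83 ± 0.13 in TadA mutant, 3.62 ± 0.24 in UCC2003, 3.54 ± 0.40 in GF and 3.48 ± 0.42 in CONV (SD, n = 4), again with no overlap of TadA mutant with UCC2003 and GF.

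Clec2e read 6.91, 6.99, 7.12 and 7.36 in UCC2003, 5.49, 6.12, 6.54 and 6.93 in TadA mutant, 6.78, 6.98, 7.32 and 7.86 in GF and 6.3, 6.58, 6.75 and 6.93 in CONV on the log2 scale. Clec2e belongs to the C-type lectins that serve as ligands of NK cell receptors. Its TadA mutant arrays were widely spread, 3 of them below all UCC2003 and GF arrays, and the CONV arrays lay within the TadA mutant range. Thoc3, a subunit of the complex that exports mRNA, averaged 5.58 ± 0.34 in TadA mutant, 6.17 ± 0.16 in UCC2003, 6.07 ± 0.15 in GF and 5.91 ± 0.40 in CONV. The other named lower members, Erich2, Etos1, Rhox4e, Vmn2r-ps38 and Crygn, an eye lens crystallin, differed from the mean of UCC2003 and GF by -0.78, -0.72, -0.61, -0.54 and -0.52.

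A second deposited table, of 23332 transcript clusters on the same arrays, could be matched to 8 members by symbol. In 7 of the 8 the TadA mutant mean differed in the same direction from both UCC2003 and GF, and Crygn was the exception. With those arrays left out that were rich in pancreatic transcripts, 2 of UCC2003, 3 of TadA mutant and 1 of GF remained, and the number was 5. These are the same RNAs and arrays, so the match checks the summarising of probes and not the animals. Clec2e had the largest difference of the 8, -1.56 ± 0.435 against GF and -1.36 ± 0.435 against UCC2003 (SE). Il1rl1 was 0.32 ± 0.16 above GF, Mllt11, a small protein first found as a fusion partner in leukaemia, 0.358 ± 0.112 above, and Ttc28 0.452 ± 0.265 above. Rhof, a GTPase of filopodia, was 0.308 ± 0.0986 below GF, Lrrn3 0.341 ± 0.124 below and Fjx1 0.23 ± 0.158 below. The difference from UCC2003 was 0.349 ± 0.161 in Il1rl1, 0.188 ± 0.112 in Mllt11 and 0.226 ± 0.265 in Ttc28. It was -0.117 ± 0.0986 in Rhof, -0.243 ± 0.124 in Lrrn3 and -0.113 ± 0.158 in Fjx1. Of the 8, Clec2e and Il1rl1 alone reached the 0.3 of the rule against both groups. Without the pancreatic arrays the difference from GF turned to -0.0971 in Ttc28, and in Fjx1 it was -0.0402 from GF and 0.0209 from UCC2003. It was -0.181 in Rhof and -1.32 in Clec2e, 0.629 in Il1rl1, 0.342 in Mllt11 and -0.427 in Lrrn3. None of the 8 passed in CONV against GF, where 1.41% of clusters passed as higher and 0.476% as lower, or against UCC2003, where 1.39% and 1.64% did (limma, adjusted over all clusters). At an unadjusted p under 0.05, 4 of the 8 differed in CONV against GF and 3 against UCC2003, beside 13.2% and 19.4% of all clusters.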

How the data were processed

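Colon RNA of 16 mice, 4 arrays in each of 4 groups, was hybridised to Affymetrix Mouse Exon ST1.0 arrays. Groups came from the treatment label of each sample. The deposited values are log2 intensities, which the authors normalised by RMA. The submitters' processing notes name Affymetrix Expression Console 1.1, Partek and the build mm9. The design text names Subio Platform. The gene-level table holds 1793 genes with a deposited p-value under 0.05 from the authors' ANOVA over UCC2003, TadA mutant and GF. The deposited ratio column of that table and the signed fold changes of the authors' deposited comparison table were not used. Columns of the gene-level table show the group and no replicate. Array medians of the gene-level table ran from 5.92 to 6.06, pairwise correlations of the cluster table from 0.938 to 0.979, and no columns were identical. The number of arrays limits the precision.

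The members, lists and role groups were chosen with earlier results of these data known. Group means were fitted over the 16 arrays and compared by the two-sided moderated test of limma 3.58.1 (R 4.3.3). Benjamini-Hochberg adjustment allowed for the prior selection of the 1793 genes by counting 35860 tests (1793 divided by 0.05), and in the clusters over 23332 tests, with a threshold of 0.05. The fit was tested on simulated data. Genes were named by a rule: the 10 largest differences in each direction without a predicted or clone name, the members of the gene lists, the 5 smallest p-values per direction in CONV against GF and against UCC2003, and the 3 nearest the threshold on each side. Genes of the role groups beyond these were named after their values were seen, and 1 gene that the rule takes is not reported here. Symbols were matched to RefSeq tables of GRCm38.p6, where 93 of 120 members were found, 9 of them under a newer symbol. No coordinates but those of promoter windows were taken from it, since the arrays were processed on mm9. Replicate numbers in the cluster table did not pair samples: correlations of the deviations of samples with the same number ran from -0.0976 to 0.18 for CONV and GF, and from -0.239 to -0.0526 for CONV and UCC2003. Alternatives were other thresholds, scalings, fits and adjustments, and leaving out each array.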

Additional observations from a re-analysis of the deposited data

Results flagged for a closer look

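In 188 groups of 4 arrays, the 4 groups of each of 47 named genes, 7 arrays stood apart from the other 3 by more than Dixon's critical value, where chance flags about 1 in 20 groups. The highest TadA mutant array of Cd48 read 5.45, with the next at 5.01. Hmgb1l read 2.36 in the highest GF array, with the next at 1.74. The highest UCC2003 array of Il2rg read 5.81, with the next at 5.53. Insc read 3.36 in the lowest CONV array, with the next at 4.32. Shcbp1 read 4.72 in the lowest GF array, with the next at 5.15. The lowest TadA mutant array of Spaca1 read 3.62, with the next at 3.82, and Vmn1r199 read 2.46 in the lowest GF array, with the next at 2.90.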

How the results depend on the processing

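Of the 120 members, 17 higher and 18 lower met the rule with each of the 12 UCC2003, TadA mutant and GF arrays left out in turn. Il2rg and Rhof met it in 5 of these 12 settings and Trdv4 in 6, the fewest of all members. The number of members ran from 111 to 131. It was 185 with thresholds of 0.25 and 0.3, 58 with a difference of 0.4, and 23, 12 and 2 with the authors' p under 0.01, 0.005 and 0.001. Members that passed in CONV against GF, 6 as reported, numbered 2 with the compared groups alone, 3 with an ordinary fit, 27 when adjusted over the 1793 genes alone and 2 to 5 with an array left out. In CONV against UCC2003, 5 as reported, the matching numbers were 1, 3, 31 and 2 to 6. Against the mean of the other 3 groups, 5 as reported, they were 3 with an ordinary fit, 22 over the table's genes alone and 3 to 5 with an array left out. Without the second CONV column Cd3g and Ppih did not pass there, and without the fourth Cd3g and Gbp2b did not. Duox2 passed in all settings of the 3 comparisons, and Sgol2 in all but CONV against UCC2003 with those groups alone (adjusted p = 0.0857). No member reversed. The cause was not tested.

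Of the 8 matched clusters none passed as reported. Quantile normalisation gave 1 in CONV against GF, leaving out CONV replicate 4 gave 1 in each comparison, so that the range without a replicate was 0 to 1, and the mean of Cpa1 and Cel as a covariate gave 1 in CONV against UCC2003. With the replicate block 0 of the 8 passed in both comparisons. For the gene-level table no paired analysis was possible because its columns carry no replicate number, and for the same reason arrays with pancreatic transcripts could not be left out, so that alternative was not run. The 4 arrays per group limit what could be called.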
